A study of Mus musculus with 38 samples.

Results

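The Id family and other genes known as targets or ligands of bone morphogenetic protein (BMP) signalling were followed across the livers of 20 mice. The 9 listed genes were Id1, Id2, Id3, Id4, Smad6, Smad7, Hamp, Bmp2 and Bmp6, taken by the gene symbol of the array annotation. Of these, 8 genes were measured, by 9 probes of the 36607 on the array (8 of 17501 named genes), Id1 having 2 probes. Smad7 was not analysed here. The set was chosen knowing that Id3 was higher in 5-month knockouts, so every knockout-against-control value of a member at 5 months, and every Id3 value at 5 against 3 months, is a description and carries no p-value.

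BMP ligands bind paired type I and type II receptors, which phosphorylate Smad1, Smad5 and Smad9. These enter the nucleus with Smad4 and raise transcription of the Id genes, of the inhibitory Smads Smad6 and Smad7, and, in hepatocytes, of Hamp. Id proteins have a helix-loop-helix domain without a DNA-binding region and hold E proteins such as those of Tcf3, Tcf4 and Tcf12 in inactive pairs. Hamp encodes hepcidin, the hormone that makes cells withdraw the iron exporter ferroportin, and sinusoidal endothelial cells are the known main source of BMP2 and BMP6 in mouse liver.

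All 20 mice were males that received 1 dose of N-nitrosodiethylamine (DEN), a liver carcinogen, given at 14 days of age (10 micrograms per gram). The knockout livers came from Alb-Cre +/-; Met Fl/Fl mice, strain label 129SV/C57BL6, in which the albumin promoter drives Cre in hepatocytes. Which other liver cells keep c-Met, to which hepatocyte growth factor binds, was not tested here. The control livers came from Alb-Cre +/- mice without floxed Met, strain label B6129. Genotype and strain label therefore cannot be told apart. Each genotype was examined at 5 and at 3 months, with 5 mice in each of the 4 groups. The labels give 20 and 12 weeks of age for these times, and counted from the dose both ages would fall short of the months named. RNA of each whole liver was hybridised on 2-colour arrays against 1 pool of RNA from 5 untreated wild-type male livers. Every value below is a log2 ratio of the liver over that pool, 1 per mouse, and an error is an SD over 5 mice for a group or an SE of limma's fit over 20 mice for a difference. The labels do not say whether mice shared litters or cages.

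Several facts of the whole series touch what follows. Both dye orientations were hybridised for 18 mice, while 5-month knockout 2 had its liver in Cy3 alone and 5-month knockout 3 in Cy5 alone. Cy5 was taken as the numerator of the deposited ratio, a likely direction that no source used here states, and read the other way every higher becomes lower. Array numbers fall into 4 consecutive runs: run A held the 5-month controls with knockouts 1 and 2, run B held 5-month knockouts 3, 4 and 5, and runs C and D held both genotypes at 3 months. Time and run therefore cannot be told apart. For 5-month control 4, the array with its liver in Cy5 stood apart. Its r lay between -0.61 and -0.48 against the 10 such arrays of 3 months. Against the other such arrays of 5 months, r lay between -0.29 and 0.27. With the swapped-dye hybridisation of control 4, its sign turned, r was 0.70. Results were also computed without the array that stood apart. The 1 Met probe ranged from -1.57 to -0.45 in 5-month knockouts and -1.19 to -0.37 in 5-month controls, and from -0.59 to 0.28 in 3-month knockouts and -1.0 to -0.62 in 3-month controls. It was not lower in knockouts at either time (-0.05 ± 0.21 at 5 months, limma adjusted p = 0.979; 0.42 ± 0.21 at 3 months, limma adjusted p = 0.655). Where that probe lies relative to the deleted part of Met is not given in the sources used here, so it does not check the genotype, and "knockout" stands for the label throughout.

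Both arrays of a mouse measured Id2, Id3, Hamp and its paralog Hamp2 alike, and the other probes less so. Over the 18 mice with both orientations, the liver-in-Cy5 value and the turned liver-in-Cy3 value lay on the same side of 0 in 16 mice for Id2 (Pearson r = 0.88) and in 16 for Id3 (r = 0.74). For Hamp they did so in 17 mice (r = 0.85). Smad6 gave 8 mice (r = 0.35), Bmp2 11 (r = 0.22) and Bmp6 6 (r = 0.13). The first Id1 probe gave 8 mice (r = -0.07), the second 10 (r = 0.65) and Id4 5 (r = -0.65), with a median gap between the arrays of a mouse of 1.47 for Id4. These correlations describe paired arrays that share a liver. The values here were taken before a dye effect per probe was subtracted, so a constant dye gap can put the arrays of a mouse on opposite sides of 0. The median of Cy5 minus turned Cy3 was -1.47 for Id4 and -0.87 for the second Id1 probe, against 0.16 for Id2, 0.31 for Id3 and 0.46 for Hamp. The second Id1 probe thus correlated between orientations but carried a wide gap. Statements on Id4, Smad6, Bmp2, Bmp6 and the first Id1 probe rest on values that the dye orientations did not repeat.

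**Figure D1:**
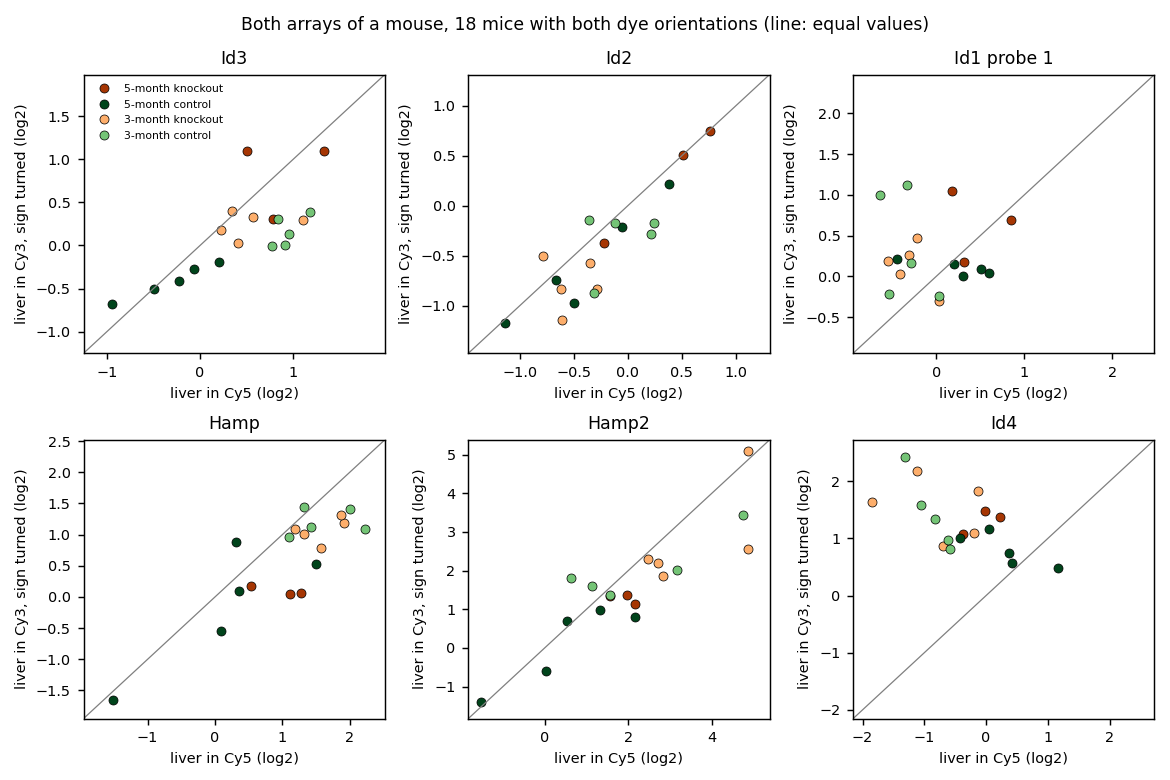
Log2 ratio of the liver over the reference pool on both arrays of a mouse, liver-in-Cy5 array on the x axis and liver-in-Cy3 array with its sign turned on the y axis, for the 18 mice with both orientations, with a line of equal values. Id2, Id3, Hamp and Hamp2 follow the line, with 16 or 17 of 18 mice on the same side of 0, while Id4 has 5 of 18 and runs against it. Values are before subtraction of the dye effect.

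Id3 was the member that separated the genotypes at 5 months. The Id3 protein is a partner of E proteins that blocks differentiation programmes in many cell types. It stood at 0.55, 0.26, 1.52, 0.80 and 1.21 in 5-month knockouts 1 to 5, against 0.01, -0.17, -0.32, -0.82 and -0.50 in 5-month controls 1 to 5. All 5 knockouts lay above the reference pool, as 24.1% of all probes did, and above every control, and 4 of 5 controls lay below the pool. The means were 0.87 ± 0.50 in knockouts and -0.36 ± 0.32 in controls (SD, n = 5 each), a difference of 1.23 ± 0.20 or 2.34-fold. Of all probes, 3.92% had 5-month groups that did not overlap, and 0.145% passed limma's test at an adjusted p under 0.05, 47 higher and 6 lower in knockouts. This contrast chose Id3, so nothing is read from its place among them. In whole liver, fewer cells that make a transcript and less of it per cell cannot be told apart.

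The Id3 level of 5-month knockouts varied with the array run. Knockouts 1 and 2, hybridised in the same run as the controls, averaged 0.40, whereas knockouts 3, 4 and 5 of run B averaged 1.18. Run B held no control, so for its knockouts genotype and run cannot be told apart. Within run A the difference was 0.76 ± 0.23, 2 knockouts against 5 controls, and it held the same direction. On liver-in-Cy5 arrays alone it was 1.38 ± 0.26 and on liver-in-Cy3 arrays alone 1.06 ± 0.19. Leaving out each mouse in turn gave 1.06 to 1.38.

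At 3 months no Id3 difference between genotypes was detected. Id3 stood at 0.20, 0.70, 0.22, 0.37 and 0.45 in 3-month knockouts, against 0.79, 0.46, 0.54, 0.39 and 0.57 in 3-month controls. The groups overlap, and the difference of -0.16 ± 0.20 did not pass limma's test (adjusted p = 0.906), with 4 of 5 knockouts below the control mean. The genotype difference at 5 months exceeded that at 3 months by 1.39 ± 0.29, given as a description because it holds the 5-month contrast.

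The 5-month controls were the group whose Id3 departed from the others. Ordered by mean, 5-month knockouts were highest (0.87), then 3-month controls (0.55), 3-month knockouts (0.39) and 5-month controls (-0.36). The first 3 of these overlap one another, while every 5-month control lies below every mouse of the other groups. Against 3-month controls, 5-month controls stood at a difference of -0.91 ± 0.20, 1.88-fold, with 5 of 5 below the 3-month mean. These low control values are part of the contrast that chose Id3, so no test is given. The median of all probes was 0.13 higher at 5 months in that comparison, and with each array centred on its median the Id3 difference was -1.06. Of all probes, 12.5% had groups that did not overlap there. The Id3 difference was -0.84 with array run as a random block, -0.85 without the array that stood apart and -0.69 with that array's sign turned. In knockouts the difference between 5 and 3 months was 0.48 ± 0.20, with overlapping groups.

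**Figure D2:**
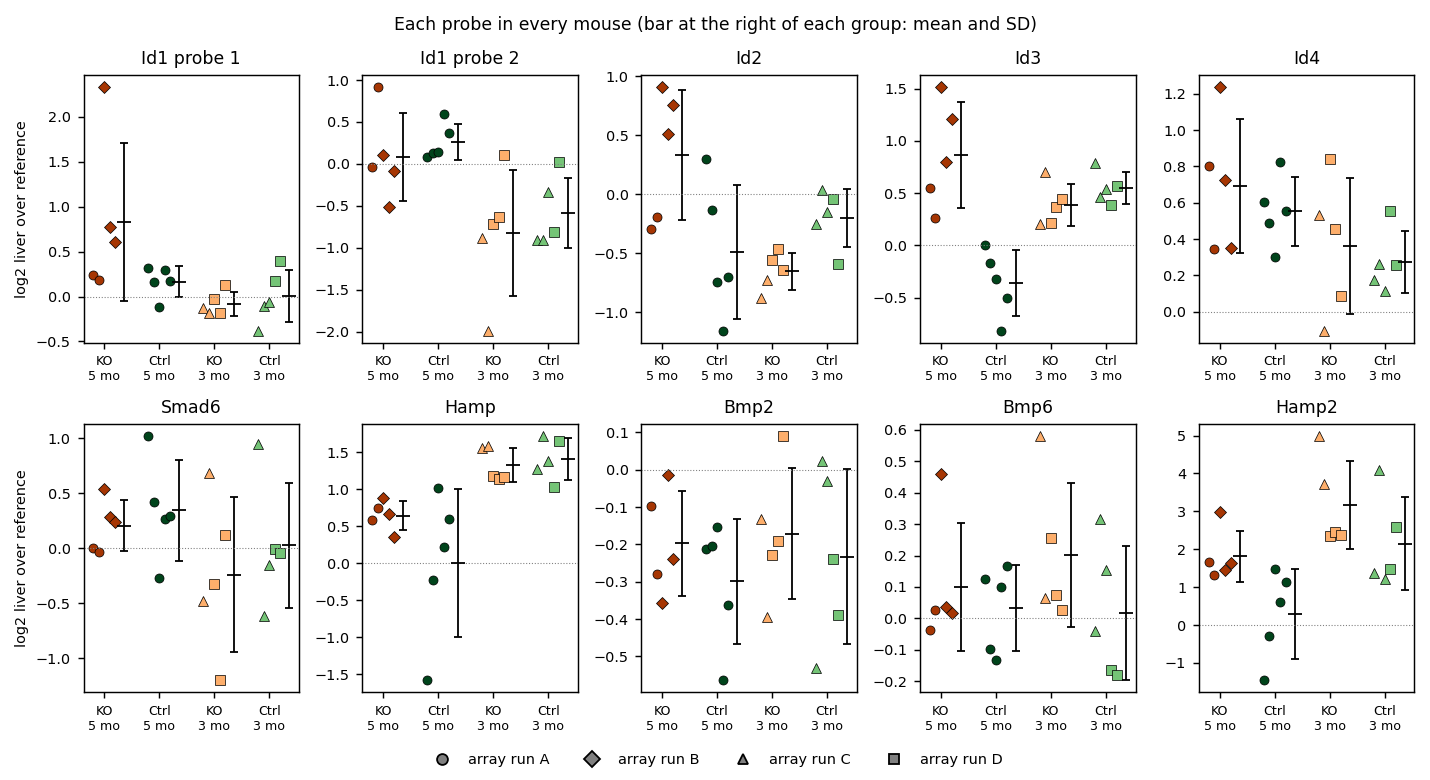
Log2 ratio of the liver over the reference pool (y axis) for each probe in every mouse, grouped on the x axis as 5-month knockouts, 5-month controls, 3-month knockouts and 3-month controls; the shape is the array run and the bar at the right of each group is the mean and SD of 5 mice. For Id3 the 5-month knockouts (0.26 to 1.52) lie above all 5-month controls (-0.82 to 0.01), and for Hamp the 3-month groups (1.03 to 1.71) lie above all 5-month knockouts (0.36 to 0.88).

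The promoters of the members whose values both dye orientations repeated are shown because Id3 and Id2 varied together over mice and because Hamp and Hamp2 did. Each runs from 250 bases before to 50 after the start of the RefSeq gene on mouse build GRCm38.p6, and a promoter was in the table for Id2, Id3, Id4, Smad6, Hamp and Bmp6. Capitals mark GGCGCC, a hexamer known from BMP-responsive elements, CAGAC, the Smad-binding letters, and TTCNNNGAA, the letters that STAT factors bind, each searched on both strands. In Hamp2, capitals also mark the hexamer aligned with GGCGCC of Hamp. Id3 lies at chr4:136143572-136143871 on the plus strand, and Id2 at chr12:25096043-25096342, Hamp at chr7:30943980-30944279 and Hamp2 at chr7:30924132-30924431 on the minus strand.
Id3: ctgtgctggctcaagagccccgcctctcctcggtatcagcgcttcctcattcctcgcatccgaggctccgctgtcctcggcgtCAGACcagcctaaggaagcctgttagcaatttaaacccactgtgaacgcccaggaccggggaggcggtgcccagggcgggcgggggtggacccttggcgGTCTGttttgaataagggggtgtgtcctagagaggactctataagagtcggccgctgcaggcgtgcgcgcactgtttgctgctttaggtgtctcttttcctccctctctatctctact
Id2: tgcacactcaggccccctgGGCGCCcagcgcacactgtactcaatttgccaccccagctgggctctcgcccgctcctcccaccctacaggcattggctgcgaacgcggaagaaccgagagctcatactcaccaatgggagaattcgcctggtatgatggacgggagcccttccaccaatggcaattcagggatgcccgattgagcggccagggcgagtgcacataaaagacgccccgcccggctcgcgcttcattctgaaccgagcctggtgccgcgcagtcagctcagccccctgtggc
Hamp: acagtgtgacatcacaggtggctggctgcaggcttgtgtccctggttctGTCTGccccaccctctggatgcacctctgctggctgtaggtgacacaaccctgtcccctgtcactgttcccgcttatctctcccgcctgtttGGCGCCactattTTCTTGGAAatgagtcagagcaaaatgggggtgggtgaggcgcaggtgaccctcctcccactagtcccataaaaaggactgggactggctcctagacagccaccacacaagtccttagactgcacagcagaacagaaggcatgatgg
Hamp2: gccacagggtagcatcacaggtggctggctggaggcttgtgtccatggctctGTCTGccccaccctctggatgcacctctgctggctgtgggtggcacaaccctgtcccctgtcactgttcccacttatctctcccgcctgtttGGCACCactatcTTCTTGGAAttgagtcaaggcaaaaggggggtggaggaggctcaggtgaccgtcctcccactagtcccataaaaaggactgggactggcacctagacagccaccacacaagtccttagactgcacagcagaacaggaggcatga

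CAGAC occurred 2 times in the Id3 window, at -167 and -68 from the start, and GGCGCC 1 time in the Id2 window, at -231. Of the 32851 promoters in the table, 49.6% hold CAGAC and 11.9% hold GGCGCC, so neither match is rare. Id4 held GGCGCC at -148, and Smad6 held the palindromic Smad box GTCTAGAC, which shares 4 letters with CAGAC, at -4, a match found in 0.213% of promoters. In Hamp, GGCGCC stood at -109 and TTCNNNGAA, found in 8.3% of promoters, at -97. A match describes letters in these windows, not binding.

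Id2, another inhibitor of E proteins, was higher in knockouts at 5 months, while its 3-month difference had the opposite sign and did not pass the test. In 5-month knockouts 1 to 5 it stood at -0.30, -0.19, 0.91, 0.51 and 0.75, against 0.30, -0.13, -0.74, -1.15 and -0.70 in 5-month controls. Knockouts 3, 4 and 5 lay above every control, and knockouts 1 and 2 lay within the control range. The means were 0.34 ± 0.55 in knockouts and -0.49 ± 0.57 in controls (SD, n = 5 each), a difference of 0.82 ± 0.26 or 1.77-fold. Within run A, with knockouts 1 and 2 alone, it was 0.24 ± 0.34, so the 5-month Id2 difference was carried by the 3 knockouts of run B.

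At 3 months Id2 stood at -0.88, -0.73, -0.56, -0.46 and -0.64 in knockouts, against -0.25, 0.03, -0.15, -0.04 and -0.59 in controls. All 5 knockouts lay below the control mean, with 1 control inside the knockout range. The difference of -0.45 ± 0.26 did not pass limma's test (adjusted p = 0.717). Against 3-month knockouts, 5-month knockouts were higher in Id2 by 0.99 ± 0.26 (limma adjusted p = 0.0371, 5 of 5 above, groups not overlapping), 1.99-fold. In that comparison 4.73% of all probes passed (3.99% higher), 6.89% did not overlap, and the median of all probes moved by 0.14. Centring each array on its median gave 0.82 and an adjusted p of 0.0527, array run as a random block gave an adjusted p of 0.0681, and leaving out 5-month knockout 3, 4 or 5 or 3-month knockout 1, 2 or 5 ended the call (6 of 10 mice, adjusted p from 0.0548 to 0.0959). In controls Id2 did not pass between the times (-0.29 ± 0.26, adjusted p = 0.450).

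Id2 and Id3 varied together over mice. Their ratios over the 20 mice correlated at r = 0.70, and at 0.75 after group means were subtracted, as a description of values that share arrays and dyes. Among 5-month controls, animals 1 and 2 were highest in both and animal 4 lowest in both, and in 5-month knockouts animals 3 and 5 were highest in both. Control 4 holds the array that stood apart, and knockouts 3 and 5 lie in run B, knockout 3 with 1 array. Subtracting group means leaves in the gap between runs A and B among 5-month knockouts (means -0.24 and 0.72 for Id2, 0.40 and 1.18 for Id3). Id4 followed neither Id3 (r = 0.00) nor Id2 closely (r = 0.31).

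**Figure D3:**
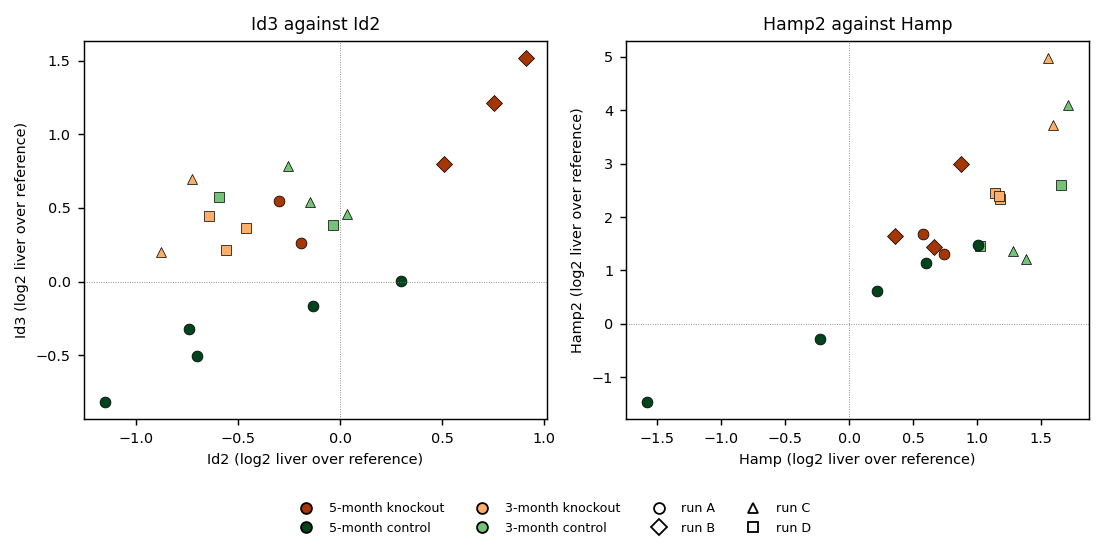
Log2 ratios of Id3 against Id2 (left) and of Hamp2 against Hamp (right) in the 20 mice, coloured by group and shaped by array run. In the left panel the 3 run B knockouts sit at the upper right and 5-month control 4 at the lower left (r = 0.70); in the right panel 5-month control 1 sits at the lower left, away from the rest (r = 0.83).

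Id1, the Id gene known for the steepest response to BMP, gave probes that disagreed. Its first probe stood at 0.24, 0.19, 2.33, 0.77 and 0.61 in 5-month knockouts, against 0.32, 0.16, -0.12, 0.30 and 0.18 in 5-month controls. Knockouts 3, 4 and 5 lay above every control, knockout 3, measured on a single array, farthest. The difference of 0.66 ± 0.28 was 0.29 without that mouse and 0.05 ± 0.18 within run A. The second probe stood at -0.04, 0.92, 0.11, -0.51 and -0.09 in 5-month knockouts, against 0.08, 0.13, 0.15, 0.59 and 0.37 in 5-month controls, a difference of -0.19 ± 0.31. The probes point in opposite directions and correlated over mice at r = 0.34, so no direction is given for Id1 at 5 months.

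At 3 months the first Id1 probe ranged from -0.19 to 0.13 in knockouts and from -0.38 to 0.39 in controls (difference -0.08 ± 0.28, limma adjusted p = 0.974). The second ranged from -1.99 to 0.10 in knockouts and from -0.91 to 0.03 in controls (-0.23 ± 0.31, adjusted p = 0.914). Between the times, both probes gave higher values at 5 months in knockouts (0.91 ± 0.28, adjusted p = 0.0653, and 0.90 ± 0.31, adjusted p = 0.0831), short of the threshold. The groups of the first probe did not overlap there, as for 6.89% of all probes. In controls the second probe differed by 0.85 ± 0.31 (adjusted p = 0.0660) with groups that did not overlap, as for 12.5% of all probes, and the first by 0.16 ± 0.28 (adjusted p = 0.717).

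Id4, the Id member best known from neural and mammary tissue, ranged from 0.34 to 1.24 in 5-month knockouts and 0.30 to 0.82 in 5-month controls, and from -0.10 to 0.84 in 3-month knockouts and 0.11 to 0.56 in 3-month controls. Its genotype difference was 0.14 ± 0.19 at 5 months and 0.09 ± 0.19 at 3 months (limma adjusted p = 0.954). Smad6, which competes with Smad1 at the receptors, ranged from -0.03 to 0.54 in 5-month knockouts and from -0.27 to 1.01 in 5-month controls. At 3 months it spread from -1.20 to 0.68 in knockouts and from -0.61 to 0.94 in controls, and its differences were -0.14 ± 0.31 at 5 months and -0.27 ± 0.31 at 3 months (adjusted p = 0.897). Neither gene passed between the times (Id4 0.33 ± 0.19 in knockouts, adjusted p = 0.268, and 0.28 ± 0.19 in controls, adjusted p = 0.300; Smad6 0.45 ± 0.31, adjusted p = 0.371, and 0.32 ± 0.31, adjusted p = 0.495).

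Hamp was lower at 5 than at 3 months in controls. It stood at -1.58, -0.23, 1.01, 0.22 and 0.60 in 5-month controls 1 to 5, against 1.28, 1.71, 1.38, 1.03 and 1.66 in 3-month controls. Every 5-month control lay below every 3-month control, the closest pair being 1.01 and 1.03. Groups did not overlap in that comparison for 12.5% of all probes. The difference of -1.41 ± 0.32, 2.65-fold, passed limma's test (adjusted p = 0.00854), as it did without 5-month control 1 (-1.01, adjusted p = 0.00819) and with array run as a random block (adjusted p = 0.0269). Hamp was the 1 probe that passed of the 8 member probes tested in controls (Id3 was not tested), while 14.7% of all probes passed, 7.25% in the lower direction. Probes for markers of several cell types were also lower at 5 months in controls. The hepatocyte list averaged between -0.58 and 0.18 in 5-month controls, against 0.13 to 0.26 in 3-month controls, with a median difference of -0.32 and 3 of 12 probes past the test, all lower. Past the test and lower were also 4 of 13 Kupffer cell and macrophage probes (median -0.34), 3 of 21 sinusoidal endothelial probes (median -0.18) and 5 of 21 stellate cell probes (median -0.03, 1 more being higher). Of the 4 other marker lists, 1 erythroid probe was lower and 1 cholangiocyte probe higher, which makes 18 marker probes past the test in controls. The part of these markers in the Hamp and Id3 values was not tested.

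In knockouts the Hamp values at 5 months were 0.58, 0.74, 0.88, 0.67 and 0.36, against 1.55, 1.59, 1.18, 1.14 and 1.17 at 3 months. These groups also did not overlap, as for 6.89% of all probes, but the difference of -0.68 ± 0.32 did not pass (adjusted p = 0.187). Between genotypes at 5 months the difference was 0.64 ± 0.32, 1.56-fold, with 0.64 ± 0.19 in knockouts and 0.00 ± 1.00 in controls (SD, n = 5 each). The control spread came mainly from animal 1, without which the difference was 0.24, and control 3 lay above all 5 knockouts. At 3 months the difference was -0.09 ± 0.32 (adjusted p = 0.979).

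Hamp2 is a tandem copy of Hamp in mice and no member of the set, and was added after its values were seen because its promoter and transcript are near copies, so that either probe may read both. The aligned promoters shared 276 of 297 bases, 92.9%, and differed inside the hexamer by G4A, counted from 1 at the hexamer's 5′ end with the Hamp base first. Hamp2 stood at 1.68, 1.31, 2.99, 1.45 and 1.64 in 5-month knockouts, against -1.46, -0.28, 1.48, 0.62 and 1.15 in 5-month controls. Knockouts averaged 1.81 ± 0.67 and controls 0.30 ± 1.19, a difference of 1.51 ± 0.63, with control 1 lowest for both genes. At 3 months Hamp2 spanned 2.34 to 4.98 in knockouts and 1.22 to 4.10 in controls (1.03 ± 0.63, adjusted p = 0.744, 5 of 5 above the control mean). Between the times its difference missed the threshold in controls (-1.85 ± 0.63, adjusted p = 0.0542) and in knockouts (-1.36 ± 0.63, adjusted p = 0.180). Hamp and Hamp2 correlated at r = 0.83 over the 20 mice, and at 0.75 within groups.

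The ligands Bmp2 and Bmp6 did not pass the genotype test at 3 months and were not tested between genotypes at 5 months. Bmp2, known as an endothelial BMP that sets basal hepcidin, ranged from -0.36 to -0.01 in 5-month knockouts and -0.56 to -0.15 in 5-month controls (difference 0.10 ± 0.13). At 3 months it ranged from -0.39 to 0.09 in knockouts and -0.53 to 0.02 in controls (0.06 ± 0.13, adjusted p = 0.956). Bmp6, the endothelial BMP known to respond to liver iron, ranged from -0.04 to 0.46 in 5-month knockouts and -0.13 to 0.17 in 5-month controls (0.07 ± 0.14). At 3 months it ranged from 0.03 to 0.58 in knockouts and -0.18 to 0.32 in controls (0.18 ± 0.14, adjusted p = 0.812). Neither passed the test between the times (adjusted p from 0.674 to 0.947), and neither was repeated well by the dye orientations.

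**Figure D4:**
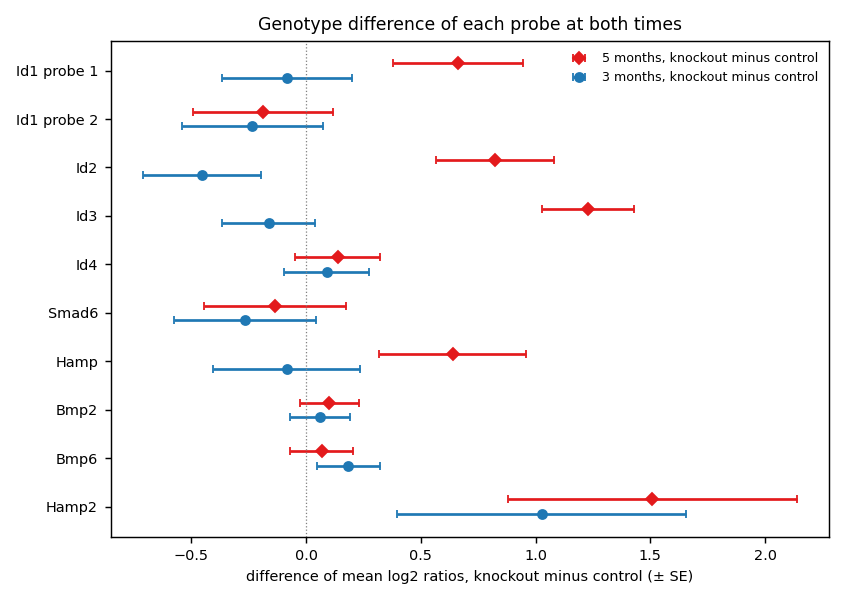
Difference of mean log2 ratios, knockout minus control, for each probe on the x axis with its SE, at 5 months (diamonds) and 3 months (circles), 5 mice in each group. Id3 (1.23) and Id2 (0.82) lie to the right at 5 months and left of 0 at 3 months (-0.16 and -0.45), while Bmp2, Bmp6, Id4 and Smad6 lie between -0.27 and 0.18 at both times.

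Of the 9 member probes none passed the genotype test at 3 months, and none had an unadjusted p under 0.05, the lowest being 0.0909 for Id2. Of all probes 0.0355% passed there (13 of 36607), 1.31% had groups that did not overlap, and 7.96% had an unadjusted p under 0.05. Between the times, of the 8 member probes tested, 1 passed in knockouts (Id2, higher) and 1 in controls (Hamp, lower). Of all probes, 4.73% passed in knockouts and 14.7% in controls. The knockout and control comparisons share no mice. At the later time the genotypes shared run A alone, because run B held knockouts only. At the earlier time runs C and D each held both genotypes. No run held mice of both times, so in each comparison between the times, time and run cannot be told apart.

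The remaining genes of the pathway were counted from 9 lists chosen with earlier results of these data known, 86 genes on 136 probes. Between genotypes, 0 of 136 passed limma's test at 5 months and 0 of 136 at 3 months, with 10 and 6 at an unadjusted p under 0.05 (7.35% and 4.41%, against 10.5% and 7.96% of all probes). Between the times, 4 of 136 passed in knockouts, all higher, and 15 in controls, 13 higher and 2 lower, against 4.73% and 14.7% of all probes. The genes named next had the smallest p in their list, 2 for each time. Unless stated, a value is of the gene's probe with the smallest p, and other probes of a gene could differ.

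Among BMP ligands (8 genes, 10 probes, median difference -0.04 at 5 months and 0.09 at 3 months), Gdf2, which encodes BMP9, differed by 0.36 ± 0.16 at 3 months (adjusted p = 0.585) and Bmp10 by -0.46 ± 0.35 (adjusted p = 0.817). At 5 months Gdf5 gave -0.88 ± 0.35 on 1 probe (adjusted p = 0.386) and -0.26 ± 0.13 on the other, and Gdf6 gave 1.02 ± 0.51 (adjusted p = 0.500). Among receptors (7 genes, 14 probes, medians 0.05 and 0.02), both probes of Eng, the endothelial co-receptor endoglin, were higher in 5 of 5 knockouts than the control mean at both times. Its probe values were 0.35 ± 0.14 and 0.33 ± 0.13 at 5 months (adjusted p = 0.370 and 0.386) and 0.27 ± 0.14 and 0.34 ± 0.13 at 3 months (adjusted p = 0.650 and 0.497). Bmpr1a, a type I receptor, gave 0.39 ± 0.14 at 5 months on one probe (adjusted p = 0.344) and 0.14 ± 0.16 on the other. Bmpr1b gave -0.69 ± 0.46 at 3 months (adjusted p = 0.778), and -0.08 and -0.01 on its other probes.

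Of the Smads that carry the signal (4 genes, 7 probes, medians 0.17 and 0.13), Smad4 had the smallest p of any pathway probe. One Smad4 probe stood at 0.20, 0.41, 0.28, 0.14 and 0.13 in 5-month knockouts, against -0.09, -0.01, -0.23, -0.30 and -0.26 in 5-month controls. These groups did not overlap, as for 3.92% of all probes, yet the difference of 0.41 ± 0.11 did not pass over all probes (adjusted p = 0.192). The other Smad4 probe gave 0.17 ± 0.18. Smad1 differed by 0.25 ± 0.16 at 5 months (adjusted p = 0.632), its other probes giving 0.30 and -0.01. At 3 months Smad9 differed by 0.33 ± 0.24 (adjusted p = 0.811) and Smad4 by 0.11 ± 0.11 (adjusted p = 0.870). Among inhibitors of the pathway (13 genes, 17 probes, medians -0.01 and 0.14) the named genes were Ski (-0.46 ± 0.23) and Sostdc1 (-0.42 ± 0.27) at 5 months and Skil (0.31 ± 0.18) and Twsg1 (0.22 ± 0.14) at 3 months, none past the test. At the same times the other probes gave -0.08 for Ski, 0.35 for Skil and 0.15 for Twsg1.

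Genes that set hepcidin levels (8 genes, 11 probes, medians -0.04 and 0.06) gave no call either. Tfr2, the hepatocyte sensor of iron-loaded transferrin, differed by -0.31 ± 0.17 at 5 months (adjusted p = 0.553) and Rgmb, a BMP co-receptor, by -0.37 ± 0.20 (adjusted p = 0.551). Their other probes gave -0.12 for Tfr2 and -0.18 for Rgmb. Erfe, the hormone erythroferrone that lowers hepcidin, differed by -0.64 ± 0.30 at 3 months (adjusted p = 0.610), and Atoh8, a factor known to raise hepcidin transcription, by 0.36 ± 0.17 (adjusted p = 0.608). In the iron handling list (12 genes, 16 probes, medians 0.18 and 0.00), Tfrc, the transferrin receptor, stood at 0.74, 0.57, 0.34, 1.00 and 0.40 in 5-month knockouts, against 0.41, 0.06, 0.31, -0.04 and 0.21 in 5-month controls. That difference was 0.42 ± 0.14 (adjusted p = 0.302), with overlapping groups. Cp, the copper ferroxidase ceruloplasmin, gave 0.28 ± 0.13 at 5 months on 1 probe (adjusted p = 0.473) and -0.06 ± 0.22 on the other. Slc40a1, which encodes ferroportin, gave -0.36 ± 0.17 at 3 months (adjusted p = 0.610) and 0.26 ± 0.17 at 5 months (adjusted p = 0.652), and Ireb2 gave 0.56 ± 0.24 at 3 months (adjusted p = 0.559).

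The partners of Id proteins (7 genes, 9 probes, medians -0.01 and 0.00) did not pass. Tcf3, which encodes E proteins, differed by -0.28 ± 0.15 at 5 months on 1 probe (adjusted p = 0.557) and by -0.01 ± 0.16 on the other, and Heyl by 0.38 ± 0.23 (adjusted p = 0.596). Hes1, a Notch target, differed by -0.50 ± 0.25 at 3 months (adjusted p = 0.662). Tcf12 differed by 0.38 ± 0.20 there on 1 probe (adjusted p = 0.667) and by 0.0007 ± 0.18 on the other. In the TGF-beta arm (12 genes, 30 probes, medians 0.12 and 0.05), 24 of 30 probes were positive at 5 months, where the median of all probes was 0.01. Several probes of 1 gene are counted separately there, so these are not 30 independent values. Tgif1 gave 0.28 ± 0.13 (adjusted p = 0.476), and 0.42 and 0.20 on its other probes. Ltbp1 gave 0.46 ± 0.25 (adjusted p = 0.539), its other probes running from -0.08 to 1.01. At 3 months the named genes of this arm were Tgfbr2 (0.34 ± 0.17, its other probes 0.08 to 0.11) and Ltbp3 (-0.43 ± 0.22, its other probes -0.24 and 0.18).

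Acute phase genes were followed because inflammation is known to act on hepcidin through Stat3. Their list (15 genes, 22 probes, medians 0.02 and 0.02) gave no call, Hp differing by -0.22 ± 0.13 and Stat3 by 0.27 ± 0.17 at 3 months. The other probes gave -0.43 for Hp and 0.08 for Stat3 at that time. Lcn2, which encodes the iron-siderophore binding protein lipocalin-2, stood at -1.50, -1.61, -2.95, -1.68 and -1.69 in 5-month knockouts, against 4.34, 0.34, -1.32, -1.15 and -2.49 in 5-month controls. Control 1, the mouse with the lowest Hamp and Hamp2, was the only one of the 10 above 1 in Lcn2. Saa2 gave 0.60 in that mouse and -3.40 to -1.24 in the other controls, against -4.39 to -2.53 in knockouts. The differences were -1.83 ± 0.83 for Lcn2 (adjusted p = 0.451) and -1.31 ± 0.59 for Saa2 (adjusted p = 0.444), and the part of this mouse's state in the Hamp values was not tested.

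Genes were also ranked by Pearson r with a member over the 20 mice, out of 26926 probes that name 1 gene, as a description of values that share arrays. The closest to Id3 were Zfp36l1 (r = 0.85), Cdk2ap2 (0.84), Abca3 (0.83), Ypel2 (0.82), Elob (0.82) and Stard13 (0.82), and after group means were subtracted r lay between 0.49 and 0.64. Zfp36l1, which encodes a protein that destabilises mRNAs, stood at 0.42, 0.16, 0.66, 0.60 and 0.55 in 5-month knockouts, against -0.28, -0.43, -0.41, -1.25 and -0.62 in 5-month controls. Control 4 was lowest for Zfp36l1 as for Id3. The ranking used the 5-month values that chose Id3, so genes near its top are likely to separate those groups too. Nothing is read from that separation.

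The other members were ranked over the same mice. For Id2 the closest were Olfr424 (0.81), Actb (0.80) and Trim30a (0.79), and Actb, cytoplasmic actin, gave r = 0.89 within groups. For the first Id1 probe Dvl2, Srpk3 and Wfikkn1 each gave r = 0.91, and Dvl2 stood at 3.27 in 5-month knockout 3, the mouse with the high Id1 value, against -0.01 to 0.32 in the other 5-month knockouts. For Hamp they were the glutathione transferases Gsta3 (0.93), Gsta2 (0.92) and Gsta1 (0.92), whose probes may share transcripts. Gsta3 stood at 0.73, 0.57, 0.43, 0.46 and 0.62 in 5-month knockouts, against -1.11, -0.39, 0.30, -0.12 and 0.43 in 5-month controls, lowest in control 1 as Hamp was. For Smad6 they were Lix1 (0.86), Hprt (0.78) and Fbxw7 (0.75), and for Bmp6 Riok1 (0.83), Ywhaz (0.82) and Mab21l3 (0.76).

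Marker lists of liver cell types were set beside the 5-month genotype values. The ratios are relative to a normal liver and hold no absolute level, so they do not show whether a marker is expressed. The mean over 21 probes of sinusoidal endothelial markers ranged from 0.03 to 0.22 in 5-month knockouts and from -0.16 to -0.06 in 5-month controls. It was positive in 18 of 21 probes (median difference 0.32), with 7 at an unadjusted p under 0.05 and 0 past the adjusted test, Fcgr2b closest (0.55 ± 0.12, adjusted p = 0.0759). The 13 Kupffer cell and macrophage probes averaged -0.17 to 0.38 in 5-month knockouts and -0.47 to -0.04 in 5-month controls (median difference 0.46, 7 at an unadjusted p under 0.05, 0 past the adjusted test). Within the knockouts these were higher in run B (0.20 to 0.38) than in run A (-0.17 and -0.02), as Id2 and Id3 were.

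Hepatocyte markers averaged -0.03 to 0.24 over 12 probes in 5-month knockouts and -0.58 to 0.18 in 5-month controls (median difference 0.17, 0 past the test). Of these, 11 of 12 probes were positive and 4 had an unadjusted p under 0.05 in limma's test, all higher. Of all probes, 10.5% had an unadjusted p under 0.05 in this comparison. Of 21 stellate cell probes 1 passed, a probe of Dcn, which encodes decorin (0.55 ± 0.11, adjusted p = 0.0478). The stellate list averaged -0.13 to 0.02 in 5-month knockouts and -0.37 to -0.09 in 5-month controls. Its median difference was 0.06, with 14 of 21 probes positive and 7 at an unadjusted p under 0.05, all higher. Several of these 7 are probes of Dcn, so they are not independent values. Lists for cholangiocytes, lymphocytes, neutrophils and erythroid cells (28 probes in all) gave no call, with medians between -0.08 and 0.18. At 3 months the 8 marker lists gave no call, with medians between -0.19 and 0.10. The part of the marker differences in the Id2, Id3 and Hamp values was not tested.

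**Figure D5:**
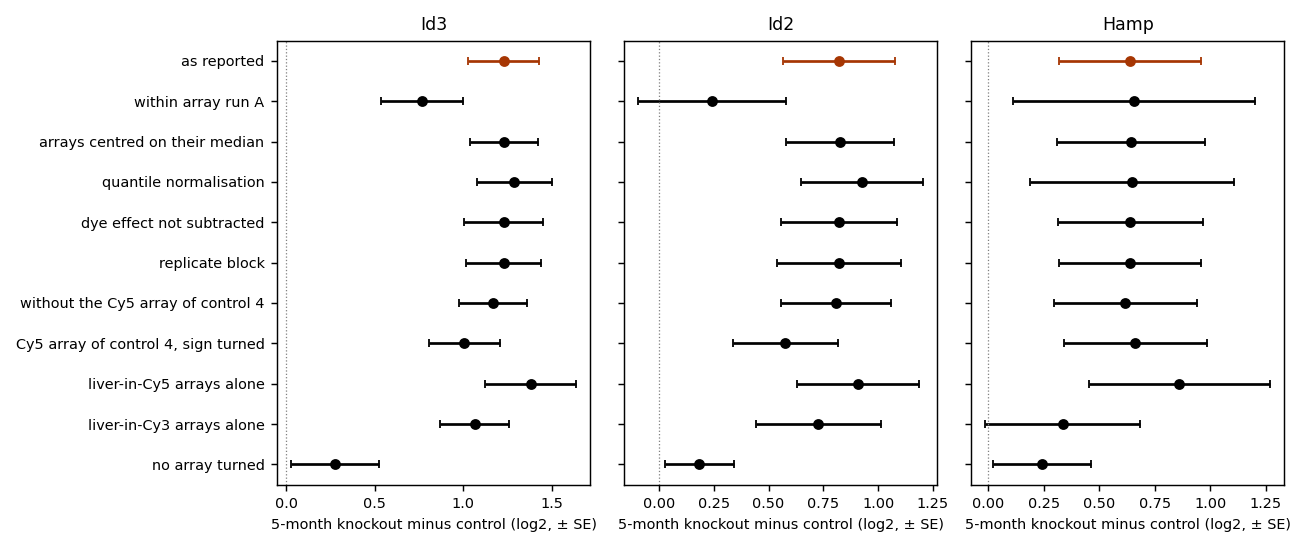
Difference between 5-month knockouts and controls (x axis, log2, with SE) for Id3, Id2 and Hamp under each way of processing on the y axis. Id3 stays between 0.76 and 1.38 except where no array was turned (0.27), while Id2 is at 0.24 within array run A and at 0.18 with no array turned.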

How the data were processed

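Livers of 20 mice were profiled on 38 arrays. Per the series' design text, the authors dropped invalid features and scaled each array to its median signal in the mAdb suite. The deposited table holds 1 log2 ratio between the dyes for each probe and array, whose base was read from its value steps. The sources used here state neither the background handling nor which dye is the numerator. Liver-in-Cy3 ratios were turned. A dye effect per probe, estimated on the 18 mice that had both orientations, was subtracted. Each mouse then got the mean of its arrays, and 5-month knockouts 2 and 3, with 1 array each, relied on the dye effect of the other mice.

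The 36607 probes were fitted with limma 3.58.1 in R 4.3.3 (lmFit and eBayes, 4 group means, Benjamini-Hochberg adjustment over all probes, threshold 0.05), and the fit was tested on simulated data. The submitters' annotation gives 26926 probes 1 gene symbol, 203 several and 9478 none. Signal intensities were not used here, so dim probes stayed in, and precision is limited by how many arrays there are. No pair of arrays held identical values (0 pairs). Array medians lay between -0.65 and 0.09 as deposited.

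Members and lists were chosen with earlier results of these data known. Named genes are every member probe, in each pathway list the probes past the threshold or else the 2 genes with the smallest p at each time, and the closest genes by Pearson r (6 for Id3, 3 for the others). Hamp2 and single marker genes were named after their values were seen. Alternatives covered the mice in the fit, centring, quantile normalisation, the dye effect, array run, the replicate block, single arrays and mice, dye orientations, turning, a robust prior and the methods' t-test. Promoters came from RefSeq (GRCm38.p6). Promoters of Id1 and Bmp2 were not used here.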

Additional observations from a re-analysis of the deposited data

Results flagged for a closer look

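The first Id1 probe stood at 2.33 in 5-month knockout 3, far from the other 4 mice of its group (0.19 to 0.77). Bmp6 stood at 0.46 in the same mouse, against -0.04 to 0.04 in the other 5-month knockouts. Hamp2 stood at 2.99 in it, against 1.31 to 1.68 in the others. These were the 3 groups of 40 looked at in which 1 mouse lay farther out than Dixon's critical value of 0.710 allows, and chance flags about 1 group in 20. All of them concern a mouse measured on 1 array, with its liver in Cy5, and the part of that in these values was not tested.

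The Id2 difference between knockouts and controls was 0.82 at 5 months, not tested, and -0.45 at 3 months, where it did not pass the test. Every 5-month knockout lay above the 5-month control mean, every 3-month knockout lay below the 3-month control mean, and the difference between the 5-month and the 3-month effect was 1.28. It holds the contrast that chose the set, so the difference was not tested.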

How the results depend on the processing

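Where members were tested, none passed in the direction opposite to its reported value. This does not cover the genotype values at 5 months, where members were not tested. Small differences did change sign with 1 mouse left out, as for Smad6 at 5 months (-0.29 to 0.03) and the second Id1 probe at 3 months (-0.47 to 0.06). Counts of probes past the test depended on the processing, and the cause was not tested. Between genotypes at 5 months, 53 probes passed as reported, against 4 with the 10 compared mice alone, 29 with centred arrays, 0 with array run as a covariate, 2 within run A, 2 with the sign of the array of control 4 turned, 2 on Cy5 and 0 on Cy3 arrays alone, 0 with no array turned, and 21 without knockouts 2 and 3. The methods' t-test, run here without its random variance model, gave 242, and 0 after Benjamini-Hochberg. Leaving out 1 mouse gave 10 (without control 4) to 105 (without control 3). Calls of member probes were not counted here, because this contrast chose the set. The Id3 difference, 1.23 as reported, was 0.76 with array run as a covariate or within run A and 0.27 with no array turned.

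At 3 months 13 probes passed, against 0 with the 10 compared mice, 5 without subtraction of the dye effect, 27 with array run as a covariate, 0 within run C and 0 within run D, 1 without the array of control 4 or with its sign turned, 2 on Cy5 and 2 on Cy3 arrays alone, 0 with no turning, 63 by the methods' t-test and 0 after adjustment. The dye effect of the same time gave 26 and the fit without knockouts 2 and 3 gave 23, both chosen after seeing the data, and leaving out 1 mouse gave 0 to 16. Member probes stayed at 0 in all of these.

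Between 5-month and 3-month knockouts 1732 probes passed, against 3767 after quantile normalisation, 528 with run as a random block, 28 with the sign of that array turned, 10207 on Cy5 and 5 on Cy3 arrays alone, 6004 with no turning, 13 without knockouts 2 and 3, and 388 (without 5-month knockout 3) to 3022 with 1 mouse left out. The 1 member probe, Id2, became 0 with centring, the random block, the turned sign, Cy3 arrays, no turning and without knockouts 2 and 3, and was joined by the first Id1 probe (2) with Cy5 arrays or the dye effect of the same time (0 to 2 with 1 mouse left out). After quantile normalisation the first Id1 probe passed and Id2 did not (adjusted p = 0.0520). In controls 5369 passed, against 2674 with the random block, 3390 without the array of control 4, 1019 with its sign turned, 17546 on Cy5 arrays, 12697 with no turning, and 2389 to 6535 with 1 mouse left out. The 1 member probe, Hamp, became 3 probes on Cy5 arrays, 2 other probes with no turning, where Hamp was at -0.06, and 1 to 2 with 1 mouse left out.

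Same-numbered mice did not deviate together (r from -0.18 to 0.17), so numbers do not pair the mice. The replicate block gave 3 probes at 3 months and 16 at 5 months, with 0 member probes between the times in knockouts.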
